A study of Mus musculus with 21 samples.

Results

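Glycolysis and lactate handling were described here through 31 genes chosen by name, of 78317 gene rows in the deposited tables. They cover glucose uptake (Slc2a1, Slc2a3), sugar phosphorylation and entry (Hk1, Hk2, Adpgk, Pgm2), the upper steps and their regulators (Gpi1, Pfkl, Pfkm, Pfkp, Pfkfb2, Pfkfb3, Pfkfb4, Fbp1), and the middle of the pathway (Aldoa, Aldoc, Tpi1, Gapdh, Pgk1, Bpgm, Pgam1, Eno1, Eno2, Eno3). Pyruvate kinase (Pkm, Pklr), lactate dehydrogenase (Ldha, Ldhb, Ldhd) and the monocarboxylate transporters that carry lactate across the cell membrane (Slc16a1, Slc16a3) complete the set. Each of the 31 symbols had 1 row, and all 31 passed the filter on low counts that left 18901 genes for testing. The rule took them by name and used no measured value, but the members were chosen with earlier results of these data known.

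Glycolysis turns glucose into pyruvate in the cytosol, and lactate dehydrogenase can then reduce pyruvate to lactate, which leaves or enters the cell through monocarboxylate transporters. Several steps are served by isoenzymes from separate genes, which differ between tissues in their regulation and affinity. Mouse embryonic stem cells in the naive state use both glycolysis and mitochondrial respiration, and the balance is known to shift as they leave that state. Lactate is also a source of lactyl groups on histone lysines, and the question named by the study is whether vitamin B6 promotes endoderm formation through glycolysis and lactylation of lysine 18 of histone H3.

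RNA was sequenced in E14 cells, an established line of mouse embryonic stem cells derived from the blastocyst, in 21 libraries that form 7 groups of 3. Cells given pyridoxine at 20 µM, which is 1 of the forms of vitamin B6 (abbreviated VB6), were collected at 3, 5 and 7 days, and so were cells given vehicle. The remaining group, called ES, was kept in standard culture without treatment. The sources used here state neither how differentiation was begun nor whether replicates were grown as separate cultures, so that the p-values measure the spread between libraries, which may be technical. The labels name total RNA taken up in TRIzol, while their protocol also speaks of enriching small RNAs, so the library preparation is uncertain. No transgene or allele is named for any group.

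The libraries held 15882380 to 21629730 expected counts, with a median of 17972485, and the 31 genes took 2.08 to 2.78% of them. Naive stem cell markers summed to 202 to 233 CPM (counts scaled to a common library size with edgeR's TMM factors) in the day 7 libraries of both arms, against 2767 to 3006 CPM in ES libraries. Markers of visceral endoderm and liver summed to 5009 to 6231 CPM in VB6 day 7 libraries, 3769 to 4056 CPM in vehicle day 7 libraries and 28.5 to 35.7 CPM in ES libraries. Of these 6 markers, 3 were called higher and 2 lower with VB6 at day 7 (edgeR adjusted p under 0.05). Their median log2 difference was 0.11, and 18.6% of all genes were called higher and 17.9% lower. Blood markers stayed at or below 0.989 CPM everywhere. The ES group thus carried the markers of its label, and little of that signal was left at day 7. In such mixtures, fewer cells of a type and less RNA per cell cannot be told apart. Libraries of 2 groups stood apart from the rest. The fragment length implied by the deposited FPKM values was 220 to 237 nt in vehicle day 5 and 260 to 275 nt in VB6 day 7, against 303 to 315 nt in the other 5 groups. Ribosomal protein genes took 3.52 to 3.83% of counts in vehicle day 5 and 3.39 to 3.62% in VB6 day 7, against 5.54 to 7.53% elsewhere, and mitochondrially encoded genes took 4.08 to 4.47% and 3.00 to 3.49%, against 1.51 to 2.94% elsewhere. At days 5 and 7 library type and VB6 cannot be told apart, so these comparisons are given with 2 further scalings beside the CPM test. One is an offset per library for the trend of counts over GC content and gene length, called the GC and length fit, and the other is the authors' length-normalized TPM tested with limma.

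On the length-normalized TPM scale, 7 of the 31 genes averaged over 1000 TPM in at least 1 group. Gapdh, glyceraldehyde-3-phosphate dehydrogenase, led in every group, with group means between 4997 and 6728 TPM. Pkm, which encodes the M forms of pyruvate kinase, had group means of 1713 to 3161 TPM, and the aldolase Aldoa 2166 to 2840 TPM. Ldha, the subunit of lactate dehydrogenase that prevails in muscle, the phosphoglycerate kinase Pgk1, the phosphoglycerate mutase Pgam1 and the glucose transporter Slc2a3 were the others. Pfkfb4, Pklr, Ldhd and Fbp1 stayed under 10 TPM in every group. The ratio of the highest to the lowest group mean in CPM was under 2 for 11 genes, between 2 and 4 for 12 and at least 4 for 8. The steadiest were Bpgm (ratio 1.26), the mutase that makes 2,3-bisphosphoglycerate, and Pgk1 (ratio 1.28). The widest ranges among well-counted genes were those of the lactate transporter Slc16a1 (ratio 7.03), Ldhb (6.25), Hk1 (5.62), Pfkfb3 (4.89) and Pfkp (4.37). Partners of the same steps ranged less, with ratios of 1.97 for Slc16a3, 1.55 for Ldha, 2.17 for Hk2, 1.74 for Pfkfb2 and 2.05 for Pfkl. Expected counts were more than 0.005 from a whole number in 20 or 21 of 21 libraries for Aldoa, Gapdh, Pgam1, Pkm, Eno1, Ldha and Pklr, in 19 for Pfkp and in 18 for Ldhd. Estimated counts of this kind can divide reads among similar or overlapping genes, so the levels of these genes are less certain, and how far was not tested.

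**Figure D1:**
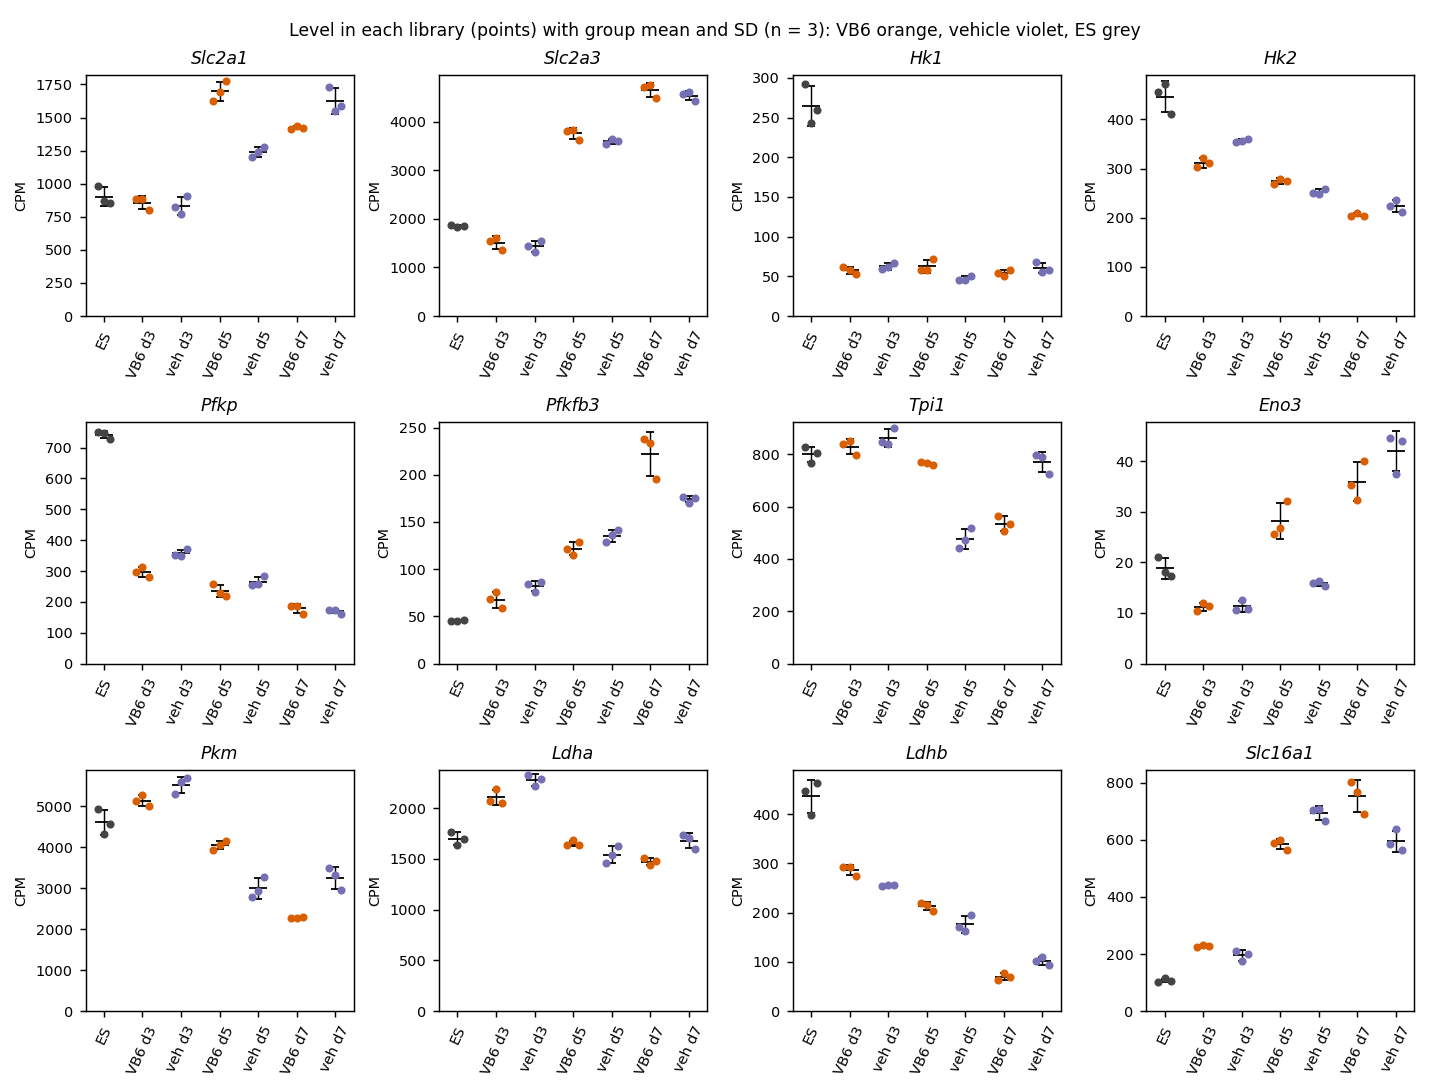
Level in CPM of 12 of the genes in the 7 groups, with a point for each library and the group mean and SD (n = 3). Slc16a1, Pfkfb3 and Slc2a3 were higher at day 7 than in ES cells, Hk1, Pfkp and Ldhb were lower, and Tpi1 was lowest in vehicle day 5 and VB6 day 7, the groups with short fragments.

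Promoters are shown for 4 of the genes, picked without a rule on their courses. In CPM, Hk2 and Ldhb were lower at vehicle day 7 than at vehicle day 3, and Slc2a1 and Slc16a1 were higher. Each is the stretch of 250 bases before the start given by RefSeq on GRCm38.p6, printed 5′ to 3′ on the strand of the gene. Capitals mark ACGTG, the core of the hypoxia response element, GCGTG, a related core, and CACGTG, the E-box that Myc and its partners bind, on either strand. ACGTG lies within CACGTG, so a match to the E-box is also a match to the first motif. The windows are chr6:82774455-82774704 on the minus strand for Hk2, chr6:142507958-142508207 on the minus strand for Ldhb, chr4:119108495-119108744 on the plus strand for Slc2a1 and chr3:104638414-104638663 on the plus strand for Slc16a1.
Hk2: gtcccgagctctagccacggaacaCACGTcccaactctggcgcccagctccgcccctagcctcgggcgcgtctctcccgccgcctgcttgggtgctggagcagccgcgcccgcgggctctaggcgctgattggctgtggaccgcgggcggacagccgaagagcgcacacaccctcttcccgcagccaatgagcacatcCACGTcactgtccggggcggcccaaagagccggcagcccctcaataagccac
Ldhb: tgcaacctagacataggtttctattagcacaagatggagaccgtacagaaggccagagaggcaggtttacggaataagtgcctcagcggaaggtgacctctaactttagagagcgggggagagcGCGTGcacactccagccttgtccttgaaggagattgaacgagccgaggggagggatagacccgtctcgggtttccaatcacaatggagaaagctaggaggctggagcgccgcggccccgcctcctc
Slc2a1: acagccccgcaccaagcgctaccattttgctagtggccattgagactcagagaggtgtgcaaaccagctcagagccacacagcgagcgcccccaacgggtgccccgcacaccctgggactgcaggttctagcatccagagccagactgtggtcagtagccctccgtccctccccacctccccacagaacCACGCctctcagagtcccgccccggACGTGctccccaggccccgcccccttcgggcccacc
Slc16a1: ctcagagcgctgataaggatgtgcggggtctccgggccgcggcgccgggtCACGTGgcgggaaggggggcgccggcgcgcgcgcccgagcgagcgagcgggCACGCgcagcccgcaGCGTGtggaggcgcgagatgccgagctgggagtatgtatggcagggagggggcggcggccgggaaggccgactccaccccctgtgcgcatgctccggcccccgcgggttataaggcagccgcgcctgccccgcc
The Slc16a1 window held an E-box and 2 further GCGTG matches, and the Hk2 window held 2 ACGTG matches outside any E-box. The Ldhb window held GCGTG alone. In the table of RefSeq promoters 30 of the 31 genes had an entry, and motifs and GC content were counted in the 250 bases before each start. ACGTG was present for 15 of these 30 genes (50%), against 18.5% of 27025 genes in the table, GCGTG for 17 (56.7%) against 30.9%, and CACGTG for 6 (20%) against 6.86%. A gene counted if any of its entries matched, and the set had 45 entries for 30 genes, against 32851 for 27025. By entry, ACGTG was present in 19 of 45, against 16.6% of all entries, GCGTG in 22, against 28.2%, and CACGTG in 6, against 6.02%. Median GC content was 58.4% in the promoters of the set and 52.4% in all promoters, and the part of this difference in these shares was not tested. A match describes letters only.

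At day 3 with vehicle, against ES cells, members of most steps changed, often in opposite directions within a family. Lower at day 3 were both hexokinases, which trap glucose in the cell, the phosphofructokinase isoform Pfkp, Pgm2, whose human counterpart acts mainly on pentose phosphates, and Ldhb, the subunit of lactate dehydrogenase that prevails in heart. Higher were both lactate transporters, Pfkfb3, a kinase that makes the activator of phosphofructokinase, the phosphofructokinases Pfkm and Pfkl, and Ldha. In all, 11 of 31 genes (35.5%) were called higher and 12 (38.7%) lower by the edgeR quasi-likelihood test at a Benjamini-Hochberg adjusted p under 0.05. Of all 18901 genes tested, 33.1% were called higher and 31.8% lower in this comparison (64.9% in all), and the median log2 fold change was 0.01 both in the set and over all genes. The share of the set that was called in either direction (74.2%) was not far above that of all genes, and its calls were split between the directions.

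Hk1, the hexokinase of most adult tissues, had 58.7, 61.5 and 67.4 CPM in vehicle day 3 libraries, against 292, 243 and 259 CPM in ES libraries. Pgm2 had 28.8, 30.6 and 30.6 CPM in vehicle day 3 libraries, against 74.5, 68.9 and 71.2 CPM in ES libraries. Pfkp had 353, 349 and 371 CPM in vehicle day 3 libraries, against 750, 747 and 729 CPM in ES libraries. For all 3 genes every day 3 library lay below every ES library. Their log2 fold changes were -2.08 ± 0.09 for Hk1 (SE; edgeR adjusted p = 4e-15), -1.25 ± 0.06 for Pgm2 (edgeR adjusted p = 4.3e-14) and -1.05 ± 0.07 for Pfkp (edgeR adjusted p = 1.9e-12). Slc16a1 had 212, 176 and 201 CPM in vehicle day 3 libraries, against 102, 115 and 105 CPM in ES libraries, a log2 fold change of 0.87 ± 0.07 (edgeR adjusted p = 1e-10), and the groups did not overlap. The other called genes at the lactate end were Slc16a3, a transporter known for lactate export, at a log2 fold change of 0.98, Ldha at 0.42, Ldhb at -0.77 and the low-count Ldhd at -0.91. In the regulatory pair of kinase and phosphatase activities that set fructose-2,6-bisphosphate, Pfkfb3 had a log2 fold change of 0.85 and Pfkfb4 of -0.81. The phosphofructokinases Pfkm and Pfkl were called higher, at 0.38 and 0.21, as were Eno1, Pkm, Bpgm and Pgk1 of the lower pathway by 0.15 to 0.30 on the log2 scale, while Aldoc, Eno2 and Eno3, isoforms best known from brain and muscle, fell by 0.58 to 0.84. Pklr, the pyruvate kinase of liver and red cells, had 26.5 to 38.9 counts per library at vehicle day 3 and 4.51 to 12.3 counts per ES library, at a log2 fold change of 2.21. Of the 23 calls, 19 remained under all 16 alternatives tried, and Eno2, Ldhd, Pfkl and Pgk1 did not.

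Over the further course with vehicle, day 7 against day 3, both glucose transporters, the lactate transporter Slc16a1 and single isoforms rose, while most enzymes of the pathway and the other lactate transporter, Slc16a3, fell. The isoforms that were higher at day 7 were Pfkfb3, Pfkfb4 and the enolases Eno2 and Eno3. Hk2, Gpi1, the 3 phosphofructokinases, Gapdh, Pgam1, Eno1, Pkm, Ldha and Ldhb were lower. Of the 31 genes, 7 (22.6%) were called higher, against 34.3% of all genes tested, and 18 (58.1%) lower, against 33.1% (67.4% called in all). The median log2 fold change was -0.32 in the set and -0.01 over all genes. The 18 lower calls include Fbp1, the phosphatase that opposes phosphofructokinase, and Ldhd, the D-lactate dehydrogenase of mitochondria, at a few counts only. Fbp1 had 2, 4 and 0 counts at vehicle day 7, against 15, 11 and 24 counts at vehicle day 3, and Ldhd had 8.82, 7.12 and 6 expected counts, against 22.5, 41.0 and 19.6 expected counts.

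Slc2a3, a high-affinity glucose transporter, had 4572, 4603 and 4424 CPM in vehicle day 7 libraries, against 1446, 1319 and 1547 CPM in vehicle day 3 libraries. Slc16a1 had 584, 637 and 565 CPM in vehicle day 7 libraries, against 212, 176 and 201 CPM in vehicle day 3 libraries. Eno3, the muscle enolase, had 44.5, 37.4 and 44 CPM in vehicle day 7 libraries, against 10.5, 12.5 and 10.8 CPM in vehicle day 3 libraries. In all 3 cases the day 7 libraries were far above the day 3 libraries, with log2 fold changes of 1.66 ± 0.06 for Slc2a3 (edgeR adjusted p = 4.4e-17), 1.60 ± 0.07 for Slc16a1 (8.3e-16) and 1.89 ± 0.11 for Eno3 (2.3e-13). Ldhb had 101, 109 and 93.0 CPM in vehicle day 7 libraries, against 255, 256 and 257 CPM in vehicle day 3 libraries, without overlap and at a log2 fold change of -1.34 ± 0.08 (edgeR adjusted p = 1.5e-13). Slc2a1, the widely expressed glucose transporter, followed with a log2 fold change of 0.96, Pfkfb3 with 1.08 and Eno2 with 1.19, while Pfkp stood at -1.07, Eno1 at -0.81, Pkm at -0.76, Hk2 at -0.67 and Gapdh at -0.54. Neither group of this comparison had short fragments, and 21 of the 25 calls remained under all 16 alternatives. The exceptions were Adpgk, Pfkfb4, Slc16a3 and Tpi1. On the TPM scale 8 genes were called higher and 15 lower, while the shares of all genes given above belong to the CPM test. Among markers of other cell types, fibroblast markers (7 genes) summed to 422 to 596 CPM at vehicle day 7 and 21.2 to 24.3 CPM at vehicle day 3. Of the 6 tested, 4 were called higher and 2 lower, where 34.3 and 33.1% of all genes were called. Muscle and neural markers (4 tested each) split into 2 higher and 2 lower each, and the 1 blood marker tested was called lower. The part of such cells in the changes of the set was not tested.

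The VB6 arm gave a further look at the middle of the course, since neither VB6 day 3 nor VB6 day 5 libraries had short fragments. Slc2a3, Slc16a1, Slc2a1 and Eno3 were the genes of the set with the smallest p, all higher at day 5. Of the 31 genes, 8 (25.8%) were called higher, against 29.9% of all genes, and 12 (38.7%) lower, against 26.4% (56.2% called in all), with a median log2 fold change of -0.11 in the set and 0.02 over all genes. Slc2a3 had 3815, 3837 and 3631 CPM in VB6 day 5 libraries, against 1550, 1615 and 1355 CPM in VB6 day 3 libraries. Slc16a1 had 589, 601 and 565 CPM in VB6 day 5 libraries, against 225, 231 and 228 CPM in VB6 day 3 libraries. Neither gene's groups overlapped, with log2 fold changes of 1.32 ± 0.06 for Slc2a3 (edgeR adjusted p = 8.3e-15) and 1.36 ± 0.07 for Slc16a1 (5.1e-14). Slc2a1 had 1626, 1692 and 1775 CPM in VB6 day 5 libraries, against 883, 886 and 805 CPM in VB6 day 3 libraries. Eno3 had 25.6, 26.8 and 32.2 CPM in VB6 day 5 libraries, against 10.3, 11.9 and 11.4 CPM in VB6 day 3 libraries. Both groups were again apart, with log2 fold changes of 0.98 ± 0.06 for Slc2a1 (edgeR adjusted p = 5.4e-12) and 1.32 ± 0.11 for Eno3 (4.2e-10). Pfkfb3 at 0.85 and Eno2 at 0.77 rose as well, and Eno1 at -0.47, Ldhb at -0.43, Ldha and Gapdh at -0.35 each and Pkm at -0.34 fell. Of the 20 calls, 12 remained under all 16 alternatives, and on the TPM scale the split was 10 higher and 6 lower, where 67.5% of all-gene calls were higher, against 53.1% by CPM.

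**Figure D2:**
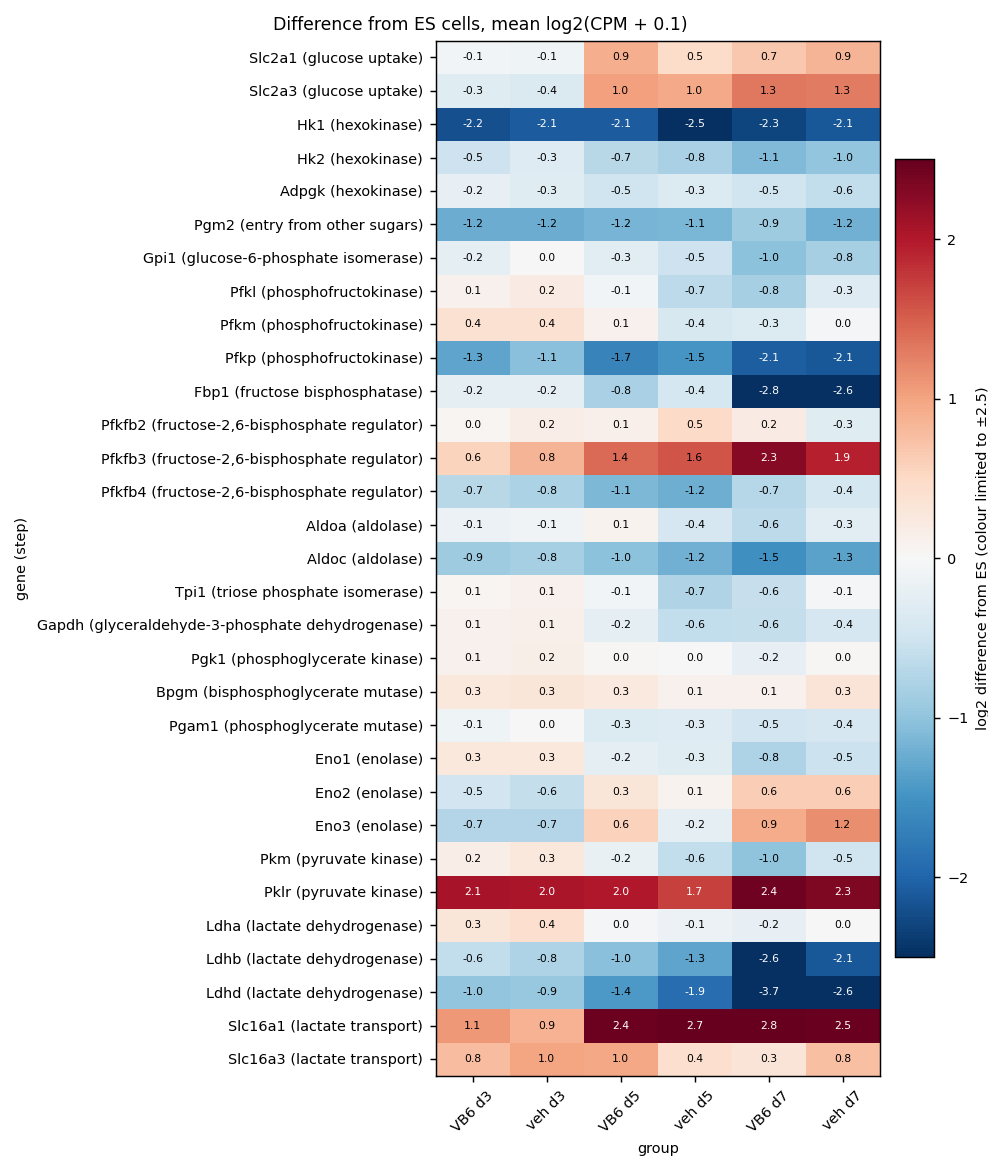
Difference from ES in mean log2(CPM + 0.1) for the 31 genes (down the page, by step) in the 6 groups of days 3, 5 and 7. Slc16a1, Pfkfb3 and, from day 5, Slc2a3 stood above ES cells, and Hk1, Pfkp, Pgm2 and Ldhb stood below in each of the 6 groups.

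Steps that touch the short-fragment groups were less stable. With vehicle, 7 genes (22.6%, against 31.9% of all genes) were called higher and 19 (61.3%, against 33.4%) lower at day 5 than at day 3 (65.3% of all genes called), with a median log2 fold change of -0.36 in the set and -0.01 over all genes. Slc16a1 had 706, 710 and 665 CPM in vehicle day 5 libraries, against 212, 176 and 201 CPM in vehicle day 3 libraries, and Slc2a3 had 3544, 3642 and 3600 CPM, against 1446, 1319 and 1547 CPM. The log2 fold changes of these transporters were 1.82 ± 0.07 for Slc16a1 (edgeR adjusted p = 4.5e-16) and 1.32 ± 0.06 for Slc2a3 (7.2e-15), without overlap. Tpi1, the triose phosphate isomerase, had 442, 474 and 518 CPM in vehicle day 5 libraries, against 848, 838 and 900 CPM in vehicle day 3 libraries. Pkm had 2783, 2925 and 3272 CPM in vehicle day 5 libraries, against 5281, 5578 and 5672 CPM in vehicle day 3 libraries. Both were lower in every day 5 library, at log2 fold changes of -0.85 ± 0.06 for Tpi1 (edgeR adjusted p = 8.4e-12) and -0.88 ± 0.06 for Pkm (1.9e-11). Only 9 of these 26 calls remained under all 16 alternatives: Slc2a1, Slc2a3, Slc16a1, Pfkfb3 and Eno3 among the higher and Pfkm, Tpi1, Eno1 and Pkm among the lower. Among those that were not kept, Ldha was called lower by CPM at -0.56 but higher on the TPM scale at 0.33, and Aldoa was called lower by CPM at -0.33 but higher in the GC and length fit at 0.19. On the TPM scale 5 genes were called lower, in place of 19, the median of all genes stood at 0.24 and the higher share of all-gene calls was 71.3%, against 48.9% by CPM.

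At day 7 against day 5 with vehicle, 15 genes (48.4%, against 35.2% of all genes) were called higher and 9 (29.0%, against 31.1%) lower (66.3% of all genes called), with medians of 0.12 in the set and 0.02 over all genes. Eno3 had 44.5, 37.4 and 44 CPM in vehicle day 7 libraries, against 16, 16.4 and 15.4 CPM in vehicle day 5 libraries. Tpi1 had 797, 790 and 725 CPM in vehicle day 7 libraries, against 442, 474 and 518 CPM in vehicle day 5 libraries. Both were higher at day 7 without overlap, at log2 fold changes of 1.40 ± 0.10 for Eno3 (edgeR adjusted p = 5.1e-11) and 0.69 ± 0.06 for Tpi1 (3.2e-10). Ldhb had 101, 109 and 93.0 CPM in vehicle day 7 libraries, against 170, 163 and 195 CPM in vehicle day 5 libraries. Pfkp had 172, 175 and 162 CPM in vehicle day 7 libraries, against 256, 258 and 284 CPM in vehicle day 5 libraries. Both were lower at day 7, at log2 fold changes of -0.80 ± 0.07 for Ldhb (edgeR adjusted p = 2.2e-09) and -0.65 ± 0.07 for Pfkp (1.1e-08). Here 10 of 24 calls remained under all 16 alternatives, with Eno3, Tpi1, Ldhb and Pfkp among them, while the higher and lower counts became 8 and 17 in the GC and length fit and 3 and 16 on the TPM scale. For the GC and length fit no share of all genes is given here. Gapdh, Ldha and Pfkl were called higher by CPM, at 0.21, 0.12 and 0.32, but lower in the GC and length fit, at -0.20, -0.10 and -0.15, and on the TPM scale, at -0.31, -0.62 and -0.37. On the TPM scale the median of all genes stood at -0.13 and 37.9% of all-gene calls were higher, against 53.1% by CPM.

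In the VB6 arm, day 7 against day 5, 7 genes (22.6%, against 27.3% of all genes) were called higher and 19 (61.3%, against 27.3%) lower (54.5% of all genes called), with medians of -0.25 in the set and -0.01 over all genes. Ldhb had 63.7, 77.4 and 68.6 CPM in VB6 day 7 libraries, against 219, 215 and 204 CPM in VB6 day 5 libraries. Pkm had 2277, 2260 and 2288 CPM in VB6 day 7 libraries, against 3939, 4044 and 4143 CPM in VB6 day 5 libraries. Pfkl, the liver phosphofructokinase, had 307, 291 and 319 CPM in VB6 day 7 libraries, against 492, 517 and 526 CPM in VB6 day 5 libraries. All 3 were lower in each day 7 library, at log2 fold changes of -1.60 ± 0.08 for Ldhb (edgeR adjusted p = 8.8e-14), -0.83 ± 0.06 for Pkm (1.5e-10) and -0.74 ± 0.07 for Pfkl (1.4e-08). Pfkfb3 had 238, 234 and 195 CPM in VB6 day 7 libraries, against 122, 115 and 129 CPM in VB6 day 5 libraries, a log2 fold change of 0.87 ± 0.08 (edgeR adjusted p = 2.1e-09) with no overlap. Of the 26 calls 10 remained under all 16 alternatives, Ldhb, Pkm and Pfkfb3 but not Pfkl among them. Gapdh, Ldha and Pgam1 were called lower by CPM, at -0.36, -0.16 and -0.14, but higher on the TPM scale, at 0.32, 0.29 and 0.15. The TPM scale gave 11 higher and 8 lower, where the median of all genes stood at 0.21 and 75.7% of all-gene calls were higher, against 50.0% by CPM. These day-to-day comparisons share libraries with each other and with the VB6 comparisons.

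Within families, the share of each isoform in the summed TPM differed between the groups. Shares were compared with exact two-sided permutation tests, for which 3 libraries against 3 cannot give a p below 0.1, and with 126 such tests the smallest value after Benjamini-Hochberg adjustment was 0.145, so no share passed a threshold of 0.05. Hk1 made up 36.7, 30.8 and 33.1% of hexokinase TPM (Hk1 and Hk2) in ES libraries, 13.1, 14.3 and 15.4% in vehicle day 3, 13.9, 13.3 and 14.9% in vehicle day 5 and 24.2, 19.1 and 19.5% in vehicle day 7. Pfkp made up 49.0, 53.3 and 52.4% of phosphofructokinase TPM in ES libraries, 27.7, 27.1 and 25.8% in vehicle day 3, 27.5, 25 and 25.9% in vehicle day 5 and 17.3, 19.2 and 19.1% in vehicle day 7. No library of the later groups reached the ES range for either gene. The liver form Pfkl was the largest phosphofructokinase in every library of days 3 to 7, while Pfkp was the largest in ES libraries.

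Ldhb made up 25.2, 24.3 and 26.5% of the TPM of Ldha and Ldhb in ES libraries, 12.8, 13.3 and 13.2% in vehicle day 3, 9.23, 7.84 and 10.2% in vehicle day 5 and 7.09, 7.78 and 7.08% in vehicle day 7. In the VB6 arm it made up 15.7, 15.2 and 15.3% at day 3, 15.1, 14.3 and 14.1% at day 5 and 4.65, 5.46 and 5.38% at day 7. Ldha was therefore the main subunit throughout, and on the TPM scale VB6 and vehicle libraries did not overlap at any of the 3 days, with VB6 above vehicle at days 3 and 5 and below it at day 7. The day 5 gap depends on the scaling. As a share of CPM, Ldhb made up 11.8, 11.3 and 11.1% in VB6 day 5 libraries, against 10.4, 9.58 and 10.7% in vehicle day 5 libraries, and in the GC and length fit Ldhb and Ldha differed alike between these arms, at log2 fold changes of -0.16 and -0.14. Slc16a1 made up 14, 18.1 and 16.9% of the TPM of the 2 lactate transporters in ES libraries, 17.1, 13.7 and 14.7% in vehicle day 3, 48.7, 47 and 43.2% in vehicle day 5 and 37, 41.5 and 39.8% in vehicle day 7. The VB6 libraries had 19.1, 19.2 and 18.7% at day 3, 36.6, 36.0 and 33.3% at day 5 and 53.7, 52.6 and 48.6% at day 7. From day 5 on Slc16a1 held a larger share than in ES or day 3 libraries, and on the TPM scale the arms did not overlap on any day. The sign of the day 5 difference depends on the scaling, since Slc16a1 made up 58.7 to 61.8% of CPM in VB6 day 5 libraries, against 70.0 to 75.0% in vehicle day 5 libraries, whereas the GC and length fit put Slc16a1 at 0.31 and Slc16a3 at 0.02 with VB6.

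Among the other families, Slc2a3 made up 60.8, 63.2 and 63.9% of glucose transporter TPM (Slc2a1 and Slc2a3) in ES libraries, 58.3, 57.8 and 58.0% in vehicle day 3, 69.4, 69.3 and 69.1% in vehicle day 5 and 67.7, 70.3 and 68.9% in vehicle day 7. Pfkfb3 made up 60.4, 57.3 and 56.8% of the TPM of Pfkfb2, Pfkfb3 and Pfkfb4 in ES libraries, 72.1, 72.9 and 74.1% in vehicle day 3, 78.7, 79.1 and 81.6% in vehicle day 5 and 88.5, 85.4 and 88.4% in vehicle day 7. The Pfkfb3 share was thus higher at each later day in the vehicle arm without overlap. Eno3 made up 8.15, 6.28 and 8.27% of enolase TPM in vehicle day 7 libraries, against 2.56, 2.45 and 2.06% in ES libraries, with Eno1 at 87.3% or more in every library. Aldoa held at least 97.3% of aldolase TPM and Pkm at least 99.7% of pyruvate kinase TPM in every library. In these 2 families the minor isoforms Aldoc and Pklr changed in level but stayed minor.

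**Figure D3:**
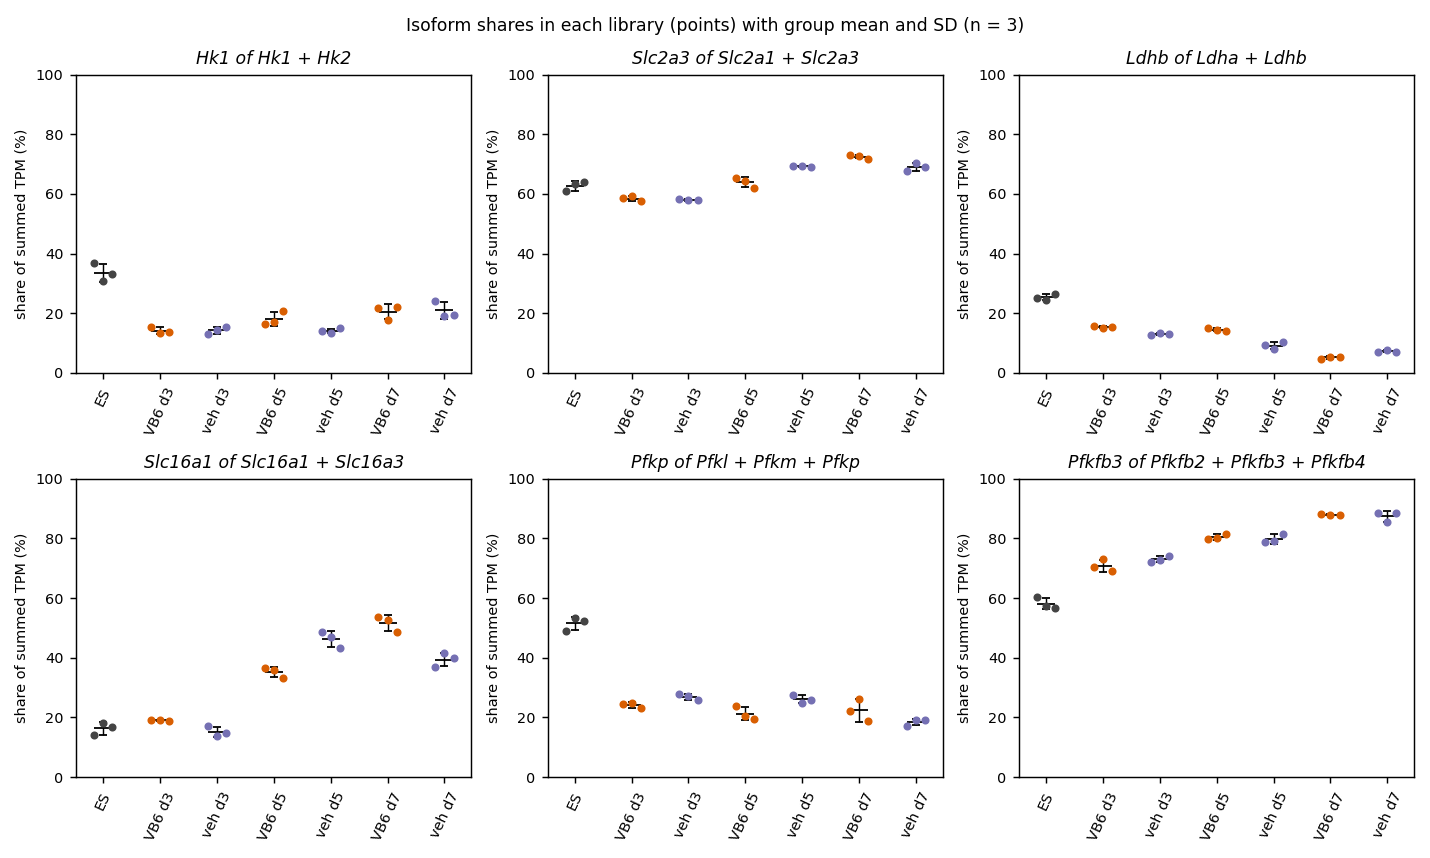
Share of single isoforms in the summed TPM of their family, in percent, for each library by group. The Hk1 and Pfkp shares were highest in ES libraries, the Ldhb share was lowest at day 7, and the Slc16a1 and Pfkfb3 shares were higher at days 5 and 7 than in ES libraries.

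At day 3 the implied fragment lengths of VB6 and vehicle libraries overlapped, and few of the genes differed between the arms. At the hexokinase and phosphofructokinase steps and their regulators, Pfkp, Hk2 and Pfkfb3 were called lower with VB6. Hk1, Adpgk, Pfkl, Pfkm, Pfkfb2 and Pfkfb4 of these steps were not called by the edgeR quasi-likelihood test, at log2 fold changes of -0.12 to 0.12. That test called no gene higher, although 2 were higher and 7 lower at an unadjusted p under 0.05, and DESeq2 called 1 higher (Slc16a1) and 3 lower. The 3 calls (9.68% of the set) stand against 2.77% of all genes called lower, 1.49% called higher and 4.26% called in all, and the median log2 difference was -0.05 in the set and -0.01 over all genes. Pfkp had 297, 313 and 280 CPM in VB6 day 3 libraries, against 353, 349 and 371 CPM in vehicle day 3 libraries. Hk2 had 302, 322 and 311 CPM in VB6 day 3 libraries, against 353, 356 and 360 CPM in vehicle day 3 libraries. Pfkfb3 had 68.2, 75.6 and 58.8 CPM in VB6 day 3 libraries, against 83.8, 76.3 and 86.1 CPM in vehicle day 3 libraries. No VB6 library reached a vehicle library for any of the 3 genes, although the highest VB6 value of Pfkfb3 came within 1% of the lowest vehicle value. The log2 fold changes were -0.27 ± 0.07 for Pfkp (edgeR adjusted p = 0.021), -0.19 ± 0.05 for Hk2 (0.031) and -0.28 ± 0.08 for Pfkfb3 (0.046). Slc16a1 had 225, 231 and 228 CPM in VB6 day 3 libraries, against 212, 176 and 201 CPM in vehicle day 3 libraries, and did not pass (log2 fold change 0.22, edgeR adjusted p = 0.067). The calls rest on single libraries: without VB6 day 3 replicate 1 or 3, or without vehicle day 3 replicate 2 or 3, none of the 31 genes was called by edgeR (1 to 3 were higher and 3 to 7 lower at an unadjusted p under 0.05; DESeq2 was run on all libraries only), and without VB6 day 3 replicate 2 or vehicle day 3 replicate 1, 2 were called lower (in the last case Slc16a1 was also called higher). The GC and length fit called 5 genes lower and the TPM scale 1, where 20.6% of all-gene calls were higher, against 34.9% by CPM. For the GC and length fit no share of all genes is given here. Naive stem cell markers summed to 1010 to 1045 CPM in VB6 day 3 libraries and 1143 to 1228 CPM in vehicle day 3 libraries. Of these 6 markers, 1 alone was called, lower with VB6, and the median log2 difference of the list was -0.23. Ribosomal protein genes took 6.94 to 7.22% of counts in VB6 and 6.21 to 6.77% in vehicle. Mitochondrially encoded genes took 2.65 to 2.94% of counts in VB6 and 2.34 to 2.57% in vehicle. Of the 6 markers of visceral endoderm and liver, Apoa1, Ttr and Apob were called higher with VB6, although the summed level of the list overlapped, at 527 to 577 CPM in VB6 and 498 to 580 CPM in vehicle. Fibroblast markers summed to 24.6 to 28.5 CPM in VB6 and 21.2 to 24.3 CPM in vehicle. Of the 6 tested, Thy1 alone was called, higher with VB6, while the median log2 difference of the list was -0.38. The part of any of these in the differences was not tested.

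At day 5 the CPM test called 12 genes higher with VB6 and 4 lower, but this split was not kept by the other scalings. Higher by CPM were Tpi1, the muscle enolase Eno3, the 2 phosphofructokinases Pfkl and Pfkm, Slc2a1, Slc16a3, Pkm, Aldoa, Gapdh, Hk1, Ldhb and the isomerase Gpi1, and lower were Slc16a1, Pfkfb2, Pfkp and Adpgk, an ADP-dependent glucokinase. The 12 higher calls (38.7%) stand against 31.2% of all genes and the 4 lower calls (12.9%) against 25.5% (56.7% called in all), with medians of 0.18 in the set and 0.05 over all genes. The GC and length fit called 8 higher and 3 lower, and the TPM scale 2 higher and 14 lower. On the TPM scale the median of all genes stood at -0.13 and the share of higher calls among all genes at 31.1%, against 55.1% by CPM and 68.2% in the GC and length fit. Tpi1 and Pfkm alone kept their calls under all 16 alternatives, both higher with VB6.

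Tpi1 had 771, 767 and 761 CPM in VB6 day 5 libraries, against 442, 474 and 518 CPM in vehicle day 5 libraries. Its log2 fold change was 0.68 ± 0.06 by CPM (edgeR adjusted p = 1.1e-09), 0.31 in the GC and length fit and 0.44 on the TPM scale, without overlap of the arms. Eno3 had 25.6, 26.8 and 32.2 CPM in VB6 day 5 libraries, against 16, 16.4 and 15.4 CPM in vehicle day 5 libraries. Pfkl had 492, 517 and 526 CPM in VB6 day 5 libraries, against 318, 339 and 377 CPM in vehicle day 5 libraries. Slc2a1 had 1626, 1692 and 1775 CPM in VB6 day 5 libraries, against 1205, 1236 and 1278 CPM in vehicle day 5 libraries. For these 3 genes too the arms did not overlap in CPM, at log2 fold changes of 0.82 ± 0.11 for Eno3 (edgeR adjusted p = 5.6e-07), 0.57 ± 0.07 for Pfkl (6.3e-07) and 0.45 ± 0.06 for Slc2a1 (1.5e-06). None of the 3 was called on the TPM scale, where Eno3 stood at 0.28, Slc2a1 at 0.14 and Pfkl, with the sign turned, at -0.17. Pfkm, the muscle phosphofructokinase, stood at 0.51 by CPM, 0.17 in the GC and length fit and 0.23 on the TPM scale. Slc16a1 was -0.25 by CPM and -0.53 on the TPM scale, but 0.31 in the GC and length fit (edgeR adjusted p = 3.3e-05), so no direction can be given. Ldha, not called by CPM at 0.10, was -0.68 on the TPM scale and -0.14 in the GC and length fit. The effective length that the authors' values imply for Ldha (expected count over FPKM) was 1264 nt in VB6 day 5 and 916 nt in vehicle day 5, and for Pfkl 3358 and 2499 nt, so that TPM and CPM differ between these arms by construction. Muscle markers summed to 56.7 to 75.7 CPM in VB6 day 5 libraries and 20.0 to 22.6 CPM in vehicle day 5 libraries, and definitive endoderm markers to 49.3 to 59.4 and 19.1 to 24.2 CPM. Of the markers tested, 3 of 4 for muscle and 2 of 4 for definitive endoderm were called higher. Other lists moved too: called higher were 2 of 6 fibroblast, 4 of 6 visceral endoderm and liver and 2 of 4 neural markers. Naive stem cell markers had 4 of 6 higher and 1 lower. Of all genes, 31.2% were called higher and 25.5% lower by CPM. The part of such cells in the Eno3 and Pfkm differences was not tested.

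At day 7, when the short fragments were on the VB6 side, most of the day 5 differences by CPM had the opposite sign. Tpi1, Pkm, Ldhb, Pfkl, Slc16a3, Aldoa, Pfkm, Eno1, Bpgm, Pgk1, Gapdh, Slc2a1 and Ldha were called lower with VB6, and Slc16a1, Pfkfb2, Pfkfb3 and Pgm2 higher. The 13 lower calls (41.9%) stand against 17.9% of all genes and the 4 higher calls (12.9%) against 18.6% (36.5% called in all), with medians of -0.19 in the set and 0.01 over all genes. The GC and length fit called 4 higher and 9 lower, and the TPM scale 10 higher and 3 lower. For the GC and length fit no share of all genes is given here. On the TPM scale the median of all genes stood at 0.19 and the share of higher calls among all genes at 82.9%, against 51.1% by CPM. Calls kept under all 16 alternatives were those of Pfkfb2, Pfkfb3 and Pgm2, higher with VB6, and of Tpi1, Pkm and Ldhb, lower with VB6.

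Tpi1 had 566, 508 and 533 CPM in VB6 day 7 libraries, against 797, 790 and 725 CPM in vehicle day 7 libraries. Pkm had 2277, 2260 and 2288 CPM in VB6 day 7 libraries, against 3487, 3309 and 2943 CPM in vehicle day 7 libraries. Ldhb had 63.7, 77.4 and 68.6 CPM in VB6 day 7 libraries, against 101, 109 and 93.0 CPM in vehicle day 7 libraries. All 3 were lower in each VB6 library, at log2 fold changes of -0.53 ± 0.06 for Tpi1 (edgeR adjusted p = 2.7e-07), -0.51 ± 0.06 for Pkm (1.1e-06) and -0.53 ± 0.08 for Ldhb (1.1e-05). In the GC and length fit the same genes stood at -0.32, -0.28 and -0.24, and on the TPM scale at -0.27, -0.25 and -0.31. Pfkl had 307, 291 and 319 CPM in VB6 day 7 libraries, against 469, 426 and 396 CPM in vehicle day 7 libraries, a log2 fold change of -0.49 ± 0.07 (edgeR adjusted p = 1.6e-05) that was 0.12 on the TPM scale. Among the regulators, Pfkfb3 stood at 0.35 by CPM, 0.27 in the GC and length fit and 0.68 on the TPM scale, and Pfkfb2, the heart type of this enzyme, at 0.53, 0.35 and 0.82. Pgm2 stood at 0.30, 0.18 and 0.53. Gapdh, lower by CPM at -0.19, was 0.12 in the GC and length fit and 0.43 on the TPM scale. Its implied effective length was 678 nt in VB6 day 7 and 851 nt in vehicle day 7. Ldhd had 0, 5.24 and 4.84 expected counts in VB6 day 7 libraries and 8.82, 7.12 and 6 in vehicle day 7 libraries, and Fbp1 had 1, 2 and 1 counts and 2, 4 and 0 counts, too few for a comparison (a count of 0 allows up to 3).

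**Figure D4:**
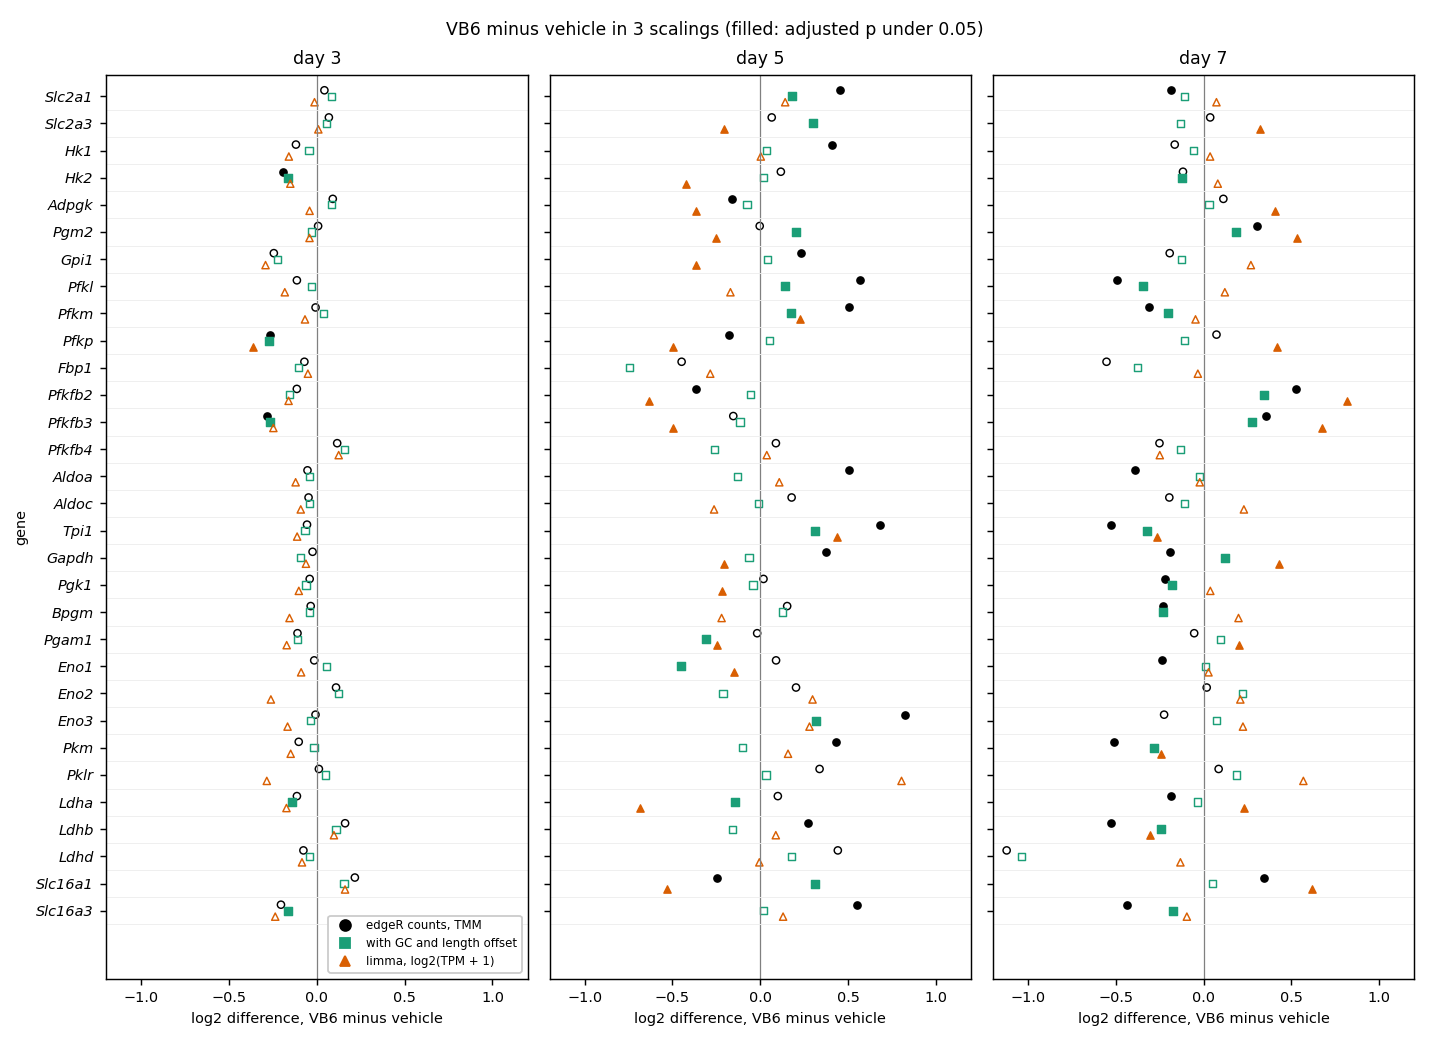
Log2 fold change of VB6 over vehicle for the 31 genes at days 3, 5 and 7 by CPM (edgeR), in the GC and length fit and on the TPM scale (limma), with filled markers for calls. At day 3 the scalings lie close together, whereas at days 5 and 7 they spread, and Tpi1 was higher with VB6 at day 5 and lower at day 7 on each.

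The mean of the 3 daily differences was near 0 for most genes. Eno3 (log2 difference 0.20, edgeR adjusted p = 0.041) was called higher with VB6 and Pfkp (-0.12, edgeR adjusted p = 0.036) lower, 3.23% of the set in each direction, against 6.58% of all genes called higher and 5.16% lower (11.7% in all). Neither call was kept under all 28 alternatives. On the TPM scale limma called no gene higher, also at an unadjusted p under 0.05, and 2 lower (6 at that unadjusted p), while DESeq2 on counts called 1 higher and 2 lower. The limma split had 39.4% of all-gene calls higher, against 56.0% by CPM, and the GC and length fit called 2 of the 31 genes higher and 8 lower. The shares of 6.58 and 5.16% of all genes belong to the CPM test and are no measure for that fit. No share of all genes is given here for the GC and length fit, so its counts cannot be set against one. Whether the VB6 difference itself varied between days was tested by the day term of the same fit, which called 22 of the 31 genes (71.0%, against 60.0% of all genes). By the sign of the CPM fold change alone, called or not, 16 of these 22 were higher with VB6 at day 5 and lower at day 7, and 6 the other way. Of the 22, 15 were also called in the GC and length fit, 15 also on the TPM scale and 10 in all 3. Fragment length differs between the arms at days 5 and 7 in opposite directions, so the day term and the library type cannot be told apart.

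Other genes of glucose metabolism were counted from lists, beside which the shares of all genes called higher and lower with VB6 were 1.49 and 2.77% at day 3, 31.2 and 25.5% at day 5 and 18.6 and 17.9% at day 7. The list values are from tests on counts, without the GC and length fit or the TPM scale. At days 5 and 7 library type and VB6 cannot be told apart in them. Among the regulators of glycolysis (15 genes tested), 4 were lower and none higher with VB6 at day 3 by edgeR (4 and 1 at an unadjusted p under 0.05, and 4 and 0 called by DESeq2): the hypoxia factor Epas1 at a log2 fold change of -1.06, Myc at -0.65, Mycn at -0.46 and Egln3, a prolyl hydroxylase that marks hypoxia factors for decay, at -0.36. At day 5 there were 5 higher and 4 lower, led by Egln2 at 1.05 and Hif1a at -0.65, and at day 7 there were 3 higher and 1 lower. At vehicle day 3 against ES cells 7 rose and 6 fell (33.1 and 31.8% of all genes), led by Txnip, an inhibitor of glucose uptake, at -2.89 and Myc at 2.97. In gluconeogenesis (4 tested) Pck2 at -0.34 and pyruvate carboxylase Pcx at -0.41 were lower with VB6 at day 3, all 4 were higher at day 5 and Pck2 was lower at day 7, at -0.50.

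The lists that follow stand against 4.26% of all genes called in either direction with VB6 at day 3, 56.7% at day 5 and 36.5% at day 7. Their values too are from tests on counts alone, with the limit of library type at days 5 and 7. Among the genes that steer pyruvate into mitochondria (13 tested), edgeR called none with VB6 at day 3, where 1 was higher and 0 were lower at an unadjusted p under 0.05 and DESeq2 called 0. At day 5, 1 was higher and 8 lower, and at day 7, 4 were higher by either tool and 0 lower (2 at an unadjusted edgeR p under 0.05, 0 by DESeq2). Pdk1, a kinase that holds back pyruvate dehydrogenase, stood at -0.53 at day 5, and at 1.12 in vehicle day 3 against ES cells, where the pyruvate carrier subunit Mpc1 stood at -2.10. In that comparison with ES cells 1 of the 13 was called higher and 7 lower, where 33.1 and 31.8% of all genes were. In the pentose phosphate pathway (7 tested) the counts of higher and lower with VB6 were 0 and 0 at day 3, both by edgeR, also at an unadjusted p under 0.05, and by DESeq2, 4 and 1 at day 5 and 1 and 4 at day 7. Among further isoforms and partners of the same steps (18 tested) they were 0 and 0, 7 and 2, and 3 and 2 at days 3, 5 and 7, where day 3 had 2 higher and 0 lower at an unadjusted edgeR p under 0.05 and DESeq2 called 0. Hkdc1, a hexokinase-like gene, stood at 1.30 with VB6 at day 5, and Bsg, the chaperone of lactate transporters, at 0.67. Another chaperone of lactate transporters, Emb, stood at 2.13 in vehicle day 3 against ES cells, beside the rise of Slc16a1. Among genes of lactylation and lactoyl metabolism (16 tested) 1 was lower with VB6 at day 3, Aars1 at -0.32, an alanyl-tRNA synthetase reported to transfer lactyl groups. At day 5 there were 9 higher and 4 lower, where 31.2 and 25.5% of all genes were called, and at day 7 there were 3 higher and 5 lower, where 18.6 and 17.9% were, and these 2 days carry the same limit of library type.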

How the data were processed

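RNA sequencing libraries of E14 mouse embryonic stem cells were analysed from 3 tables that the authors deposited: expected counts (estimated counts per gene, not normalized), TPM and FPKM, each with 78317 gene rows. The genome build was mm10, per the submitters' processing notes; aligner and counting program: not given in the sources used here. Rounding the expected counts to whole numbers altered their sum by 0.00024%. The test planned for raw counts was applied to these rounded values. FPKM deposited by the authors was used with the expected counts to derive effective and fragment length (medians over 578 genes). Groups came from the labels. The members, lists, tests and alternatives were chosen with earlier results of these data known.

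Genes passing edgeR's filterByExpr over the 7 groups (18901) were tested with edgeR's quasi-likelihood test (edgeR 4.0.16, limma 3.58.1, R 4.3.3) on all 21 libraries after TMM normalization, and a Benjamini-Hochberg adjusted p under 0.05 over all genes is a call. SE values were derived from the fold change and the F statistic. VB6 was compared with vehicle at each day, with their mean, their difference between days, and later against earlier groups within each arm. TPM values deposited by the authors were tested with limma on log2(TPM + 1), so that the fold changes of low genes are understated, and on log2(TPM + 0.1). The GC and length fit used a spline with 5 degrees of freedom for each property and 16772 genes, with GC content from GENCODE M21. Further alternatives were DESeq2 1.42.0, its size factors in edgeR, other filters, only the libraries compared, a replicate block and leaving out each library. Scripts were tested on simulated data. Counts of 0 were read as up to 3 counts, for counting error only.

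All 31 members may be named, with values of every library for isoform shares and for the 4 called members with the smallest p per comparison, and of each other list at most 4 genes with the smallest p. G6pc, of the gluconeogenesis list, was not analysed here. Replicate numbers occur in all groups without a stated pairing. The correlation of same-numbered libraries passed 0.1 in all 3 pairs for VB6 day 7 against VB6 day 5 alone (0.117, 0.147 and 0.261), and there alone they were read as pairs; the block is in the closing section.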

Additional observations from a re-analysis of the deposited data

Results flagged for a closer look

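The VB6 difference varied between days for 22 genes, by the day term of the edgeR quasi-likelihood fit (3 libraries per group; Benjamini-Hochberg adjusted over all genes, of which 60.0% passed). The fold changes below are log2 values, VB6 over vehicle, at days 3, 5 and 7 in this order. Fragment length differed between the arms at days 5 and 7 in opposite directions, and its part was not tested.

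Of the genes that were higher with VB6 at day 5 and lower at day 7, Tpi1 stood at -0.06, 0.68 and -0.53 (edgeR adjusted p = 8.99e-11), Pkm at -0.10, 0.43 and -0.51 (1.42e-08) and Pfkl at -0.11, 0.57 and -0.49 (3.05e-08). Slc16a3 (1.38e-07), Aldoa (5.88e-07), Pfkm (1.03e-06), Ldhb (1.1e-06), Eno3 (3.47e-06), Slc2a1 (4.93e-06) and Gapdh (5.19e-06) had the same signs at days 5 and 7. So did Hk1 (0.000994), Hk2 (0.00178), Ldha (0.00215), Eno1 (0.00339), Gpi1 (0.0054) and Bpgm (0.0304). The single days were not all called for these genes.

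The opposite signs, lower at day 5 and higher at day 7, were held by Slc16a1 at 0.22, -0.25 and 0.34 (edgeR adjusted p = 1.82e-05), Pfkfb2 at -0.11, -0.37 and 0.53 (3.93e-05) and Pfkfb3 at -0.28, -0.15 and 0.35 (5.37e-05). Adpgk (0.00588), Pgm2 (0.0083) and Pfkp (0.00832) had these signs as well. However, Pgm2 at day 5 (-0.003) and Pfkp at day 7 (0.07) were small and not called. In the GC and length fit these 2 values stood at 0.20 and -0.11. The single days were not all called for the other genes with these signs either. The day term was also called both in the GC and length fit and on the TPM scale for 10 of the 22 genes.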

How the results depend on the processing

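Most values kept their direction and their side of the threshold. Among the counts of calls 486 stayed within 1.5 times the value by CPM and 86 did not, and over the 31 genes 136 values with a call before or after had the opposite sign, 86 of them on the TPM scales and 50 with the GC and length offset; 37 were called both ways. The cause was not tested. Depth limits the genes with few counts, Ldhd, Fbp1 and Pklr.

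For VB6 against vehicle at day 3, genes of the set called higher numbered 1 with no filter, 2 with only the groups compared and 1 with DESeq2, in place of 0. Those called lower numbered 5 with only the groups compared, 5 with the GC and length offset, with or without a replicate block, and 1 on log2(TPM + 1) and log2(TPM + 0.1), in place of 3. Calls over all genes numbered 1393 with no filter, 1991 with only the groups compared, 1317 with the offset, 1310 with offset and block, 277 on log2(TPM + 1) and 200 on log2(TPM + 0.1), in place of 805. Leaving out single libraries gave 0 to 1 higher, 0 to 2 lower and 191 to 888 over all genes, with 255, 310 and 407 without VB6 replicates 1, 2 and 3, and 191 and 372 without vehicle replicates 2 and 3.

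At day 5 both TPM scales gave 2 higher and 14 lower, and calls over all genes fell to 6614 with the offset and 6575 with offset and block, in place of 10716; single libraries gave 11 to 14 higher, 3 to 4 lower and 9770 to 10199 over all genes. At day 7 both TPM scales gave 10 higher and 3 lower, and calls over all genes were 4485 with the offset and 4453 with offset and block, in place of 6899; single libraries gave 4 higher throughout, 11 to 14 lower and 5438 to 6664 over all genes. For the mean over days the genes called higher numbered 0 with DESeq2 size factors and on both TPM scales, 3 with no filter, 2 with only the groups compared and 2 with the offset, with or without block, in place of 1. Those called lower numbered 8 with the offset, 7 with offset and block, and 2 on both TPM scales and with DESeq2, in place of 1; calls over all genes numbered 1309 on log2(TPM + 0.1), in place of 2218. Single libraries gave 0 to 2 higher, 0 to 1 lower and 1592 to 2504. The higher call was lost without VB6 day 3 replicate 2, VB6 day 5 replicate 3, any vehicle day 5 replicate, VB6 day 7 replicate 1 or vehicle day 7 replicate 2, and the lower call without VB6 day 3 replicate 1 or 3, vehicle day 3 replicate 1 or 3, VB6 day 5 replicate 2 or 3, vehicle day 5 replicate 3, VB6 day 7 replicate 3 or vehicle day 7 replicate 1 or 2. The day term gave 7558 calls over all genes with offset and block, in place of 11347, and 21 to 23 in the set and 10794 to 11390 over all genes without single libraries.

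Over the course, vehicle day 5 against day 3 gave 5 lower on both TPM scales, in place of 19. Vehicle day 7 against day 5 gave 8 higher and 17 lower with the offset, with or without block, and 3 higher and 16 lower on both TPM scales, in place of 15 and 9. VB6 day 5 against day 3 gave 6 lower on both TPM scales, in place of 12. VB6 day 7 against day 5 gave 4 higher with the offset, with or without block, and 11 higher and 8 lower on both TPM scales, in place of 7 and 19. Leaving out single libraries gave, in the set and over all genes, 9 to 11 higher, 11 to 12 lower and 11484 to 11787 for vehicle day 3 against ES, 7 higher, 16 to 19 lower and 11529 to 11777 for vehicle day 5 against day 3, and 12 to 16 higher, 8 to 10 lower and 11665 to 11988 for vehicle day 7 against day 5. It gave 6 higher, 16 to 19 lower and 12063 to 12183 for vehicle day 7 against day 3, 7 to 8 higher, 10 to 12 lower and 9710 to 9986 for VB6 day 5 against day 3, and 5 to 7 higher, 18 to 20 lower and 9348 to 9709 for VB6 day 7 against day 5.

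Signs turned as follows, in log2 units. For VB6 against vehicle at day 5, the TPM scales gave Slc2a3 -0.21, Hk2 -0.42 and -0.43, Gpi1 -0.37, Pfkl -0.17, Gapdh -0.20, Pgk1 -0.22, Eno1 -0.15 and Ldha -0.68. There the offset, with or without block, gave Pfkp 0.053 and 0.050, Aldoa -0.13, Gapdh -0.064, Eno1 -0.45, Pkm -0.10, Ldha -0.14, Ldhb -0.16, Slc16a1 0.31 and Pgm2 0.20. At day 7 the TPM scales gave Slc2a1 0.073, Pfkl 0.12, Gapdh 0.43, Pgk1 0.038, Pgam1 0.20, Eno1 0.028, Ldha 0.23 and Bpgm 0.20 and 0.21, and the offset gave Gapdh 0.12 and Eno1 0.0097 and 0.011. The offset gave Aldoa 0.19 for vehicle day 3 against ES and Hk1 -0.19 for VB6 day 5 against day 3, where the TPM scales gave Pfkfb4 0.038 and 0.049 and Pklr 0.89 and 1.35. For vehicle day 5 against day 3, the TPM scales gave Hk1 0.081 and 0.085, Hk2 0.11, Gpi1 0.11, Pfkfb4 0.12 and 0.18, Aldoa 0.16, Aldoc 0.24 and 0.25, Pgk1 0.21, Pgam1 0.014, Ldha 0.33, Bpgm 0.13 and Adpgk 0.26 and 0.27, and the offset gave Aldoa 0.19. For vehicle day 7 against day 5, the TPM scales gave Pfkl -0.37, Gapdh -0.31, Pgk1 -0.20, Ldha -0.62, Slc16a3 -0.056 and Bpgm -0.12 and -0.13, and the offset gave Hk1 -0.056, Pfkl -0.15, Aldoa -0.45 and -0.46, Gapdh -0.20, Pkm -0.42, Ldha -0.10, Slc16a1 0.28, Slc16a3 -0.18 and Pgm2 0.16. For VB6 day 7 against day 5, the TPM scales gave Slc2a1 0.045, Pfkp 0.0029, Gapdh 0.32, Pgk1 0.062, Pgam1 0.15, Ldha 0.29, Bpgm 0.30 and 0.32 and Adpgk 0.40 and 0.41, and the offset gave Pgam1 0.015 and Ldha 0.0073 and 0.0074.

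The replicate block, with the replicate number as a term, gave 2 genes lower for VB6 at day 3, in place of 3 (Pfkfb3 had an edgeR adjusted p of 0.060), and 771 calls over all genes, in place of 805. For VB6 day 7 against VB6 day 5, where the numbers were read as pairs, it left 7 higher and 19 lower, with 10213 calls over all genes in place of 10309. In no comparison did the block alone move a count by more than 1.5 times.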
